A study of Mus musculus with 27 samples.

Results

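Cardiac transcription factors are the DNA-binding proteins of the gene network that sets up the heart field and switches on heart muscle genes. The 6 genes described here are Nkx2-5, Gata4, Gata5, Gata6, Mef2c and Tbx20. They were taken as a list of names from the 23279 genes of the expression table, all 6 were found, and all 6 were among the 14438 genes that had 1 CPM (1 read in 1000000 reads on genes) or more in at least 3 of 26 libraries. Nkx2-5 owes its place among the genes tested to the heart and branchial arch libraries, where it is high. The libraries are RNA-seq of 9 groups of mouse cells and tissues. ES–FLB and ES–HLB are forelimb bud-like and hindlimb bud-like mesenchyme, FACS-sorted for Hand2::mEGFP on day 9 from aggregates of the mouse ES cell line EB5 Hand2::GFP +/-, in which the fluorescent reporter stands in 1 copy of Hand2. Both were given BMP4 and matrigel, later a BMP inhibitor (LDN193189) and Wnt3, and the ES–FLB also retinoic acid, the ES–HLB a retinoic acid antagonist. The other groups were unsorted tissue amputated from Slc:ICR embryos, with 3 embryos named in the methods: early forelimb and hindlimb buds (early FLB and early HLB, labelled E10.0), E10.5 FLB and HLB, and the E10.5 heart (Ca), branchial arch (BA) and tail bud (TB). The figure legend of the study places the early FLB at a younger stage than the early HLB, so limb type and stage cannot be told apart between these groups. Each group had 3 libraries, and replicate 2 of the E10.5 HLB was left out because it has no values on several chromosomes, which leaves 26 libraries. Nothing in the labels says that libraries of a group came from separate cultures or litters, so the p-values measure the spread between these libraries, which may be technical.

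These factors work as a set. Nkx2-5 is a homeodomain protein of the NK2 family and the earliest lasting mark of heart muscle precursors. GATA4, GATA5 and GATA6 are zinc finger proteins that bind the letters GATA, act together with Nkx2-5 and Tbx20, and are also made in lateral plate mesoderm, the endocardium, the epicardium and the gut. MEF2C is a MADS-box protein that drives muscle genes in both heart and skeletal muscle and is also used in endothelium, neural crest and neurons. TBX20 is a T-box protein of the heart that represses or activates genes with the other factors. Limb bud mesenchyme and the heart both come from the lateral plate mesoderm.

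Depth differed between the groups. The early limb buds had 19642258 to 22142313 reads on genes per library, the E10.5 limb buds 5543746 to 5908858 and all other groups 6569902 to 8541937, as read from the spacing of the low values. A level of 3 reads was between 0.135 and 0.541 CPM in the 26 libraries, and lower values are read here as at or under the floor. Replicates of a group correlated at r of 0.988 to 0.997 across genes, which are not independent. The heart muscle markers Myh6, Myh7, Tnnt2, Actc1, Myl7 and Nppa summed to 18920 to 22444 CPM in the Ca libraries and to 1.41 to 96.2 CPM elsewhere, with the top of that range in TB, where Actc1 made up most of it. Limb mesenchyme markers (Prrx1, Tbx5, Tbx4, Pitx1 and Fgf10) summed to 501 to 1167 CPM in the limb buds and ES–LBs, to 652 to 736 CPM in BA and to 109 to 157 CPM in Ca and TB. Branchial arch replicate 3 and early FLB replicate 3 had more heart muscle RNA than the other libraries of their groups. Levels below are CPM scaled between libraries, differences are on the log2(CPM + 0.5) scale with the standard error (SE) of limma, and a call is an adjusted p below 0.05 over all genes tested.

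The heart had the highest level of all 6 genes (the plot of levels by library). Nkx2-5 had 175, 129 and 148 CPM in the Ca libraries. In BA it had 1.47, 2.92 and 3.31 CPM, and it was listed at 0 in every library of TB, E10.5 FLB, early HLB and E10.5 HLB. The heart and branchial arch libraries did not overlap, with 13 to 28 reads in each BA library. In the early FLB, 2 libraries were listed at 0 and replicate 3 held 5 reads (0.258 CPM). The ES–FLB libraries held 3 to 7 reads (0.366 to 0.851 CPM) and the ES–HLB libraries 2 to 10 (0.255 to 1.198 CPM), so Nkx2-5 RNA in ES–LBs was at or close to the floor of 3 reads.

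**Figure D1:**
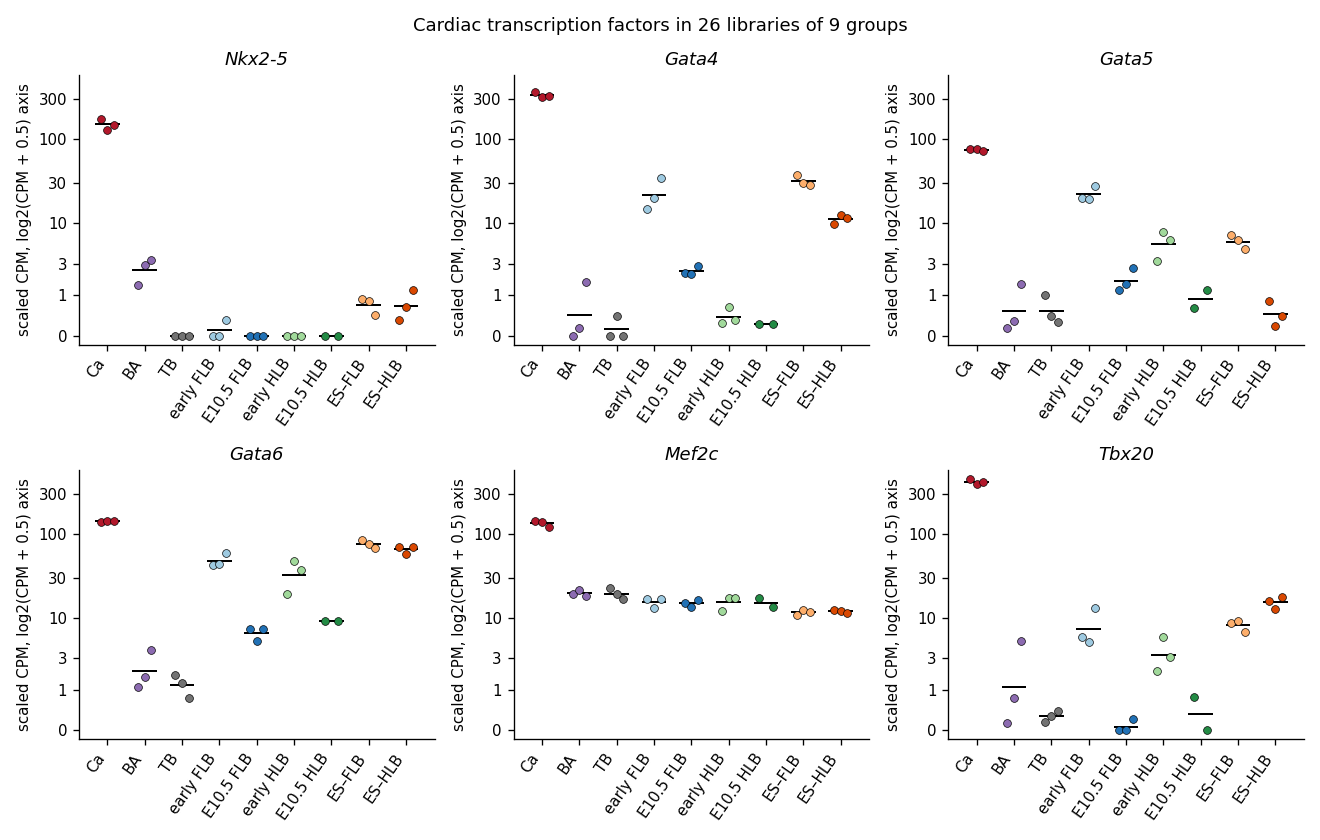
Level of each gene by library, in scaled CPM on a log2(CPM + 0.5) axis, for the 9 groups; points are libraries (3 per group, 2 for E10.5 HLB) and bars are group means on that axis. The 3 Ca libraries lie above every other library in all 6 panels, and Gata6 comes closest to the heart level in the ES–LBs.

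Tbx20 and Gata4 had the highest CPM in the heart among the 6 genes. Tbx20 had 449, 387 and 408 CPM in the heart libraries and Gata4 357, 318 and 323 CPM. Next to the heart, the Tbx20 mean was highest in ES–HLB (15.5 ± 2.59 CPM, SD, n = 3) and that of Gata4 in ES–FLB (32.2 ± 4.57 CPM, SD, n = 3). The heart mean was thus 26.7 times the next for Tbx20 and 10.3 times for Gata4, with no overlap of libraries. Gata5 had 77.9, 77.2 and 72.1 CPM in the heart, 3.37 times the mean of the early FLB, which came next. Gata6 had 141, 144 and 144 CPM in the heart and 84.9, 75.8 and 69.3 CPM in ES–FLB. That ratio of 1.86 was the smallest gap between the heart and the next group among the 6 genes. Mef2c had 145, 138 and 121 CPM in the heart and group means between 11.7 and 19.9 CPM in all other groups. Mef2c had 77 reads or more in each of the 26 libraries, and Gata6, with 6 or more, was the other gene above the floor of 3 reads in all of them.

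Levels of different genes can be set side by side only per length of exon. Per kilobase, the heart held 98.96 CPM of Nkx2-5 and 91.3 CPM of Gata4. Gata6 followed at 44.2, Tbx20 at 43.3, Gata5 at 23.1 and Mef2c at 18.4 CPM per kilobase. In the ES–FLB the order was another one, with Gata6 first at 23.7 and Gata4 second at 8.85 CPM per kilobase, and Nkx2-5 last at 0.436. In ES–HLB, Gata6 was first at 20.53 CPM per kilobase and Gata4 had 3.05.

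Against the branchial arch, whose mesoderm neighbours the heart, the 5 genes other than Nkx2-5 were over 4-fold higher in Ca. That call was met by 6.77% of all genes tested. Nkx2-5 met it too, but as it was tested because it is high in Ca and BA, its call is no support. The smallest difference was that of Mef2c (log2 2.73, SE 0.13, adjusted p = 1.4e-18, limma) and the largest that of Gata4 (8.57, SE 0.39, adjusted p = 6.0e-14, limma). Gata4 had 0, 1 and 14 reads in the BA libraries, so the size of its difference depends on the 0.5 CPM added before the log. Without BA replicate 3, which held the highest Gata4, Gata5, Gata6 and Tbx20 of its group and 11.1 CPM of the heart muscle myosin Myh7 against 0.790 and 0.700 in the other libraries, the Tbx20 difference rose from 8.01 to 8.91 and all 6 calls held. The part of heart tissue in this library was not tested. Against TB, where Nkx2-5 was listed at 0, the other 5 genes were over 4-fold higher, beside 6.09% of all genes. Gata4 and Tbx20 in TB were at 0 to 3 reads per library. The heart-to-TB ratio over these few reads was 2803 for Gata4 (95% exact counting interval 959 to 13595) and 1746 for Tbx20 (802 to 4760), intervals that cover counting error only.

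Against the limb buds the heart also led. Gata4, Gata5, Gata6, Mef2c and Tbx20 were over 4-fold higher than in E10.5 FLB, E10.5 HLB and early HLB, beside 7.36%, 8.44% and 8.14% of all genes. Against the early FLB, Gata4, Mef2c and Tbx20 were, beside 8.35%. The other two were Gata5 (log2 1.75, SE 0.40, adjusted p = 0.00047) and Gata6 (1.55, SE 0.33, adjusted p = 0.00034), which the limma fit still called higher in the heart. Nkx2-5 is left out of these counts, since it was tested only because it is high in the heart and branchial arch and most limb bud libraries listed it at 0.

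**Figure D2:**
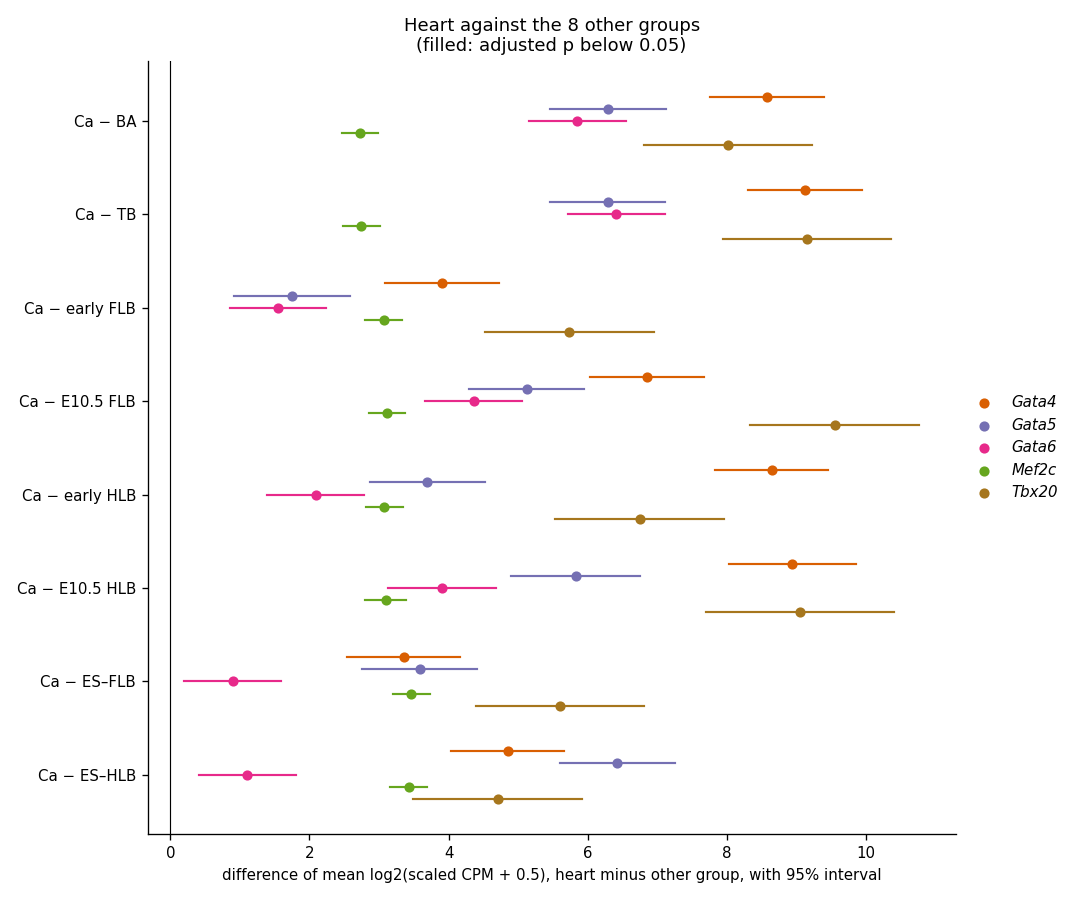
Difference of mean log2(scaled CPM + 0.5) between the heart and each other group, with 95% intervals, for the 5 genes other than Nkx2-5, which is listed at 0 in whole groups; filled points have an adjusted p below 0.05. All points are filled, Gata6 lies nearest to 0 against ES–FLB (0.90) and ES–HLB (1.11), and Mef2c stays between 2.73 and 3.47.

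Genes listed as cardiac targets were also high in the heart. All 24 of a list of 24 cardiac target genes (sarcomere proteins, natriuretic peptides, ion channels) were called higher in Ca than in BA. Their median log2 difference was 8.99, beside −0.03 over all genes tested, of which 36.4% were called higher and 38.6% lower. The list is of known heart genes and was chosen with earlier results of these data known. Its count is therefore no support for a link to the 6 factors, which was not tested. Of the most abundant, the actin gene Actc1 had 7948 ± 861 CPM in the heart (SD, n = 3), the myosin heavy chain Myh7 4400 ± 463 CPM and the light chain Myl2 3528 CPM on average. In ES–FLB these means were 1.27, 0.335 and 0.287 CPM, and in ES–HLB 1.65, 0.530 and 0.252 CPM. So Gata4 and Gata6 were well above the floor in ES–LBs while these sarcomere genes were near it. Of 25 other cardiac regulators, 16 were higher and 6 lower in the heart than in BA (median 1.73), beside the same 36.4% and 38.6% of all genes. The 5 most abundant of those called were Tbx2 (−2.07), a T-box repressor, Srf (1.15), a partner of muscle gene promoters, Smyd1 (7.76), a heart and skeletal muscle methyltransferase, Tbx3 (−1.41) and Mkl2 (−0.25). Of 13 relatives from the same families that were tested, 5 were higher and 6 lower, with a median of −0.26.

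The promoters are printed because all 6 genes were high in the same tissue, and the 3 shown are Nkx2-5 and Tbx20, which were near or at 0 in several groups, and Mef2c, which was not. The choice was limited to the 4 genes for which a window was taken. They are the 250 bases before a RefSeq start on GRCm38.p6, in the direction of transcription, and capitals mark a match to a searched motif on either strand. The GATA site was searched in 4 forms. The first was AGATAA, the second was written TGATAA, the third was written AGATAG and the last was TGATAG. The NKX site was searched as CAAGTG and the T-box site as AGGTGT. The MEF2 site had the forms TATTTTTA, also TATTTATA, further TAAAAATA and lastly TATAAATA. No match overlapped another in the windows printed. The Nkx2-5 window lies inside the span of its gene, upstream of the 1 start in the table.
Nkx2-5, chr17:26841566-26841815, minus strand: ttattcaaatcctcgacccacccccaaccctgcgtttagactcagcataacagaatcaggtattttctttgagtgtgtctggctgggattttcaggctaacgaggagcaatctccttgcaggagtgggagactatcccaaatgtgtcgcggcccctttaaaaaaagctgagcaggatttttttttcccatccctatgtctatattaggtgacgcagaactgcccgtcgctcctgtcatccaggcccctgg
Tbx20, chr9:24774304-24774553, minus strand: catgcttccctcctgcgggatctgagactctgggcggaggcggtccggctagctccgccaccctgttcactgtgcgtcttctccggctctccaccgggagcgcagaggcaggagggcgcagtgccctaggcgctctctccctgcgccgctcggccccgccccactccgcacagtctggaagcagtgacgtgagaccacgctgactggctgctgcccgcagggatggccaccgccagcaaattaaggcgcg
Mef2c, window 1, chr13:83503784-83504033, plus strand: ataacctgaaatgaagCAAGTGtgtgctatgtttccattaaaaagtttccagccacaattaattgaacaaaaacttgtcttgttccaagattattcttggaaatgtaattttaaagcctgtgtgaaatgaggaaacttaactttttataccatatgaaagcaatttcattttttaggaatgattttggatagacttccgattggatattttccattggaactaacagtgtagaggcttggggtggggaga
The windows of Nkx2-5, Tbx20 and Gata5 held 0 matches. Mef2c has 3 windows, the first with 1 NKX match and the second with 1 T-box match. Among 32851 windows of the same length, 26.5% held a GATA match, 11.6% an NKX match, 11.8% a T-box match and 3.90% a MEF2 match. The windows differ in base composition, with 49.2% G and C for Nkx2-5, 68.8% for Tbx20, 70.0% for Gata5 and 33.6% for the first of Mef2c. Gata4 and Gata6 had no entry in the table.

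The genes themselves lie apart in the genome (GRCm38, GENCODE). Nkx2-5 is on chromosome 17 (26838664 to 26844988, minus strand), Gata4 on chromosome 14 (63198914 to 63271712, minus) and Gata5 on chromosome 2 (180325088 to 180335503, minus). Gata6 is on chromosome 18 (11052510 to 11085636, plus), Mef2c on chromosome 13 (83504017 to 83667079, plus) and Tbx20 on chromosome 9 (24720812 to 24774303, minus), and all 6 are protein coding. Gata5 shares 258 bases of exon with the antisense gene Gata5os, whose level was at most 0.652 CPM. The strand setting of the authors' counting is not given in the sources used here, so reads of this stretch could have been given to either gene.

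The question put to the ES–LBs was how near they stand to the heart and how near to the limb bud. Against Ca, 5 of 6 genes were over 4-fold lower in ES–FLB and the same 5 in ES–HLB, beside 7.78% and 7.04% of all genes. Nkx2-5 is one of these 5, and as it was tested because it is high in Ca and BA, its call is no support. Gata6 was the exception. It was lower than in the heart by log2 0.90 in ES–FLB (adjusted p = 0.019, limma) and by 1.11 in ES–HLB (adjusted p = 0.0053, limma). The ES–FLB call on Gata6 was lost without ES–FLB replicate 3 (adjusted p = 0.056, limma) and on CPM as deposited (0.053).

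The ES–LBs differed from the early limb buds in most of the transcriptome. Between ES–FLB and early FLB, 76.9% of all genes were called, and 3 of the 6 cardiac factors. Gata5 was lower in ES–FLB, with 7.06, 6.10 and 4.63 CPM against 20.2, 19.4 and 27.8 CPM (log2 −1.84, SE 0.40, adjusted p = 0.00029, limma). Mef2c was lower by 0.40 (adjusted p = 0.0060, limma), a call that is lost on CPM as deposited (adjusted p = 0.19). Nkx2-5 was called higher (adjusted p = 0.0012, limma) on 3 to 7 reads per library against 0, 0 and 5. As Nkx2-5 was tested because it is high in Ca and BA, this call is no support. For the other 3 genes the intervals of the difference were −0.26 to 1.37 for Gata4, −0.05 to 1.35 for Gata6 and −1.07 to 1.35 for Tbx20. Gata4 and Gata6 were called higher in ES–FLB once BA replicate 3, which belongs to neither group but enters the shared spread, was left out (adjusted p = 0.031 and 0.037, limma), which brings the count to 5. The Gata6 libraries did not overlap, and Gata6 was also called in a fit of the 2 groups alone (adjusted p = 0.0051, limma), on CPM as deposited (0.023) and without early HLB replicate 1 (0.047).

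Between ES–HLB and early HLB all 6 were called, beside 75.3% of all genes. Gata4 stood out: the ES–HLB libraries had 9.58, 12.4 and 11.4 CPM and the early HLB libraries 0.197, 0.572 and 0.273 CPM. The means differ 32.0 times (log2 3.79, SE 0.39, adjusted p = 2.7e-08, limma), and the libraries do not overlap. Tbx20 was 4.27 times higher in ES–HLB (log2 2.04, SE 0.57, adjusted p = 0.0037, limma). Gata5 went the other way, with 0.766, 0.142 and 0.359 CPM in ES–HLB against 3.21, 7.81 and 6.11 CPM (log2 −2.73, SE 0.40, adjusted p = 2.7e-06, limma). Gata6 was called higher in ES–HLB (0.99, adjusted p = 0.012, limma), but not without early HLB replicate 1 (0.61, adjusted p = 0.093) and not in a fit of these 2 groups alone (adjusted p = 0.073). Mef2c was lower by 0.35 (adjusted p = 0.015, limma) with overlapping libraries, and the call is lost on CPM as deposited and without any 1 of 3 libraries. Nkx2-5 was called on 2 to 10 reads against 0, and as it was tested because it is high in Ca and BA, its call is no support.

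Set against the E10.5 limb buds, 6 genes were called for ES–FLB and 5 for ES–HLB, beside 68.8% and 68.7% of all genes. Nkx2-5 is among the genes counted here and in the counts against BA and TB that follow. It was tested because it is high in Ca and BA, so its calls are no support. It had 3 to 7 reads per ES–FLB library and 2 to 10 per ES–HLB library. Gata4 and Gata6 were higher in ES–FLB than in E10.5 FLB by log2 3.50 and 3.46, and in ES–HLB than in E10.5 HLB Gata6 was higher by 2.79. The Mef2c calls were weak. In ES–FLB Mef2c was lower than in E10.5 FLB by 0.35 (adjusted p = 0.017, limma), and the call was lost without E10.5 FLB replicate 3 (adjusted p = 0.087) or ES–FLB replicate 1 (0.068). In ES–HLB it was lower than in E10.5 HLB by 0.33 (adjusted p = 0.042, limma), and the call was lost on CPM as deposited (0.15), with median-ratio scaling (0.051), with no filter (0.066), in limma without trend and robust (0.066), without E10.5 HLB replicate 1 (0.43) and without any of the ES–HLB libraries (0.056 to 0.10). Against the branchial arch 6 and 5 genes were called (66.3% and 65.1% of all genes), with Gata4, Gata6 and Tbx20 higher and Mef2c and Nkx2-5 lower in both ES–LBs. For Tbx20 the ES–FLB call was lost in a fit of ES–FLB and BA alone (adjusted p = 0.076, limma). Against TB 6 and 5 were called (73.3% and 71.5%), with Gata4, Gata6 and Tbx20 again higher.

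Markers of other cell types differed between the groups, and some of those cell types use these genes too. In the heart libraries, endothelial and endocardial markers (Pecam1, Cdh5, Kdr, Tek, Tie1, Nfatc1, Emcn and Egfl7) summed to 1024 to 1111 CPM, against 301 to 457 CPM in the other embryonic groups. Blood markers summed to 19074 to 27080 CPM in the heart and to 1508 to 5184 CPM in those groups, and epicardium markers to 356 to 430 CPM and 23.3 to 151 CPM. Endoderm and liver markers varied among the heart libraries, at 50.3, 1708 and 285 CPM, and Afp made up 1452 CPM of the second. The ES–LBs held endoderm and liver markers (Foxa1, Foxa2, Sox17, Afp, Alb, Ttr, Apoa1, Apob, Hnf4a and Cdh1) that summed to 121 to 156 CPM in ES–FLB, with 10 of 10 at a mean of 1 CPM or more, and to 268 to 364 CPM in ES–HLB, with 9 of 10. In the limb buds that sum was at most 68.5 CPM, with 2 or 3 of 10. Apob, a lipoprotein of liver and yolk sac endoderm, had 166, 239 and 190 CPM in ES–HLB and 36.005, 24.2 and 28.9 CPM in ES–FLB. Afp went the other way, with 9.32, 15.7 and 14.1 CPM in ES–HLB and 46.2, 43.1 and 52.4 CPM in ES–FLB. The markers of this list thus did not all differ in 1 direction between the ES–LBs. Epicardium markers (Wt1, Tbx18, Tcf21, Upk3b, Upk1b and Aldh1a2) include Tbx18, a gene of the limb too. They summed to 218 to 227 CPM in ES–FLB, with 4 of 6 at a mean of 1 CPM or more. In ES–HLB the sum was 81.1 to 92.1 CPM and in the early limb buds 84.9 to 120 CPM, with 5 of 6 in each of these groups. Wt1 went against the higher ES–FLB sum, at 1.14 to 4.01 CPM in the ES–LBs and 6.86 to 13.1 CPM in the early limb buds. Upk3b was at most 0.359 CPM in all ES–LB libraries. The endothelial sum was 44.0 to 65.7 CPM in the ES–LBs and 352 to 457 CPM in the limb buds. The part of any of these in the levels of Gata4, Gata6 and Mef2c was not tested, and in bulk RNA fewer cells of a type and less RNA per cell cannot be told apart.

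Levels in the limb buds were also compared between stages (the plot of stage and limb type). In the FLB, 4 of 6 genes fell between the early stage and E10.5, beside 59.1% of all genes called in either direction. The shares of all genes called lower are given further below for both limb types. Gata4 had 14.6, 20.0 and 34.8 CPM early and 2.22, 2.15 and 2.79 CPM at E10.5 (log2 −2.95, SE 0.39, adjusted p = 1.9e-06, limma). Gata5 fell by log2 3.37 (adjusted p = 2.8e-07, limma), from 20.2, 19.4 and 27.8 CPM to 1.198, 1.49 and 2.61 CPM. Early and E10.5 libraries did not overlap for either gene. Gata6 fell from a mean of 49.1 to 6.55 CPM (log2 −2.81, SE 0.33, adjusted p = 7.3e-07, limma). Tbx20 fell from 5.72, 4.94 and 13.3 CPM to 0, 0 and 0.174 CPM (adjusted p = 1.5e-05, limma). With 1 read in the 3 E10.5 FLB libraries together, the early-to-E10.5 ratio of Tbx20 was 140 with a 95% exact counting interval of 25.0 to 5537. Mef2c was not called, with an interval of −0.31 to 0.21.

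In the HLB 3 genes fell, beside 28.9% of all genes called in either direction. Gata5 fell by log2 2.13 (SE 0.44, adjusted p = 0.0010, limma) and Gata6 by 1.81 (SE 0.37, adjusted p = 0.0012, limma). Gata6 had 19.6, 48.8 and 37.9 CPM early and 9.05 and 9.17 CPM at E10.5, with no overlap. Tbx20 fell by 2.30 (adjusted p = 0.011, limma), from 41 to 110 reads per library to 4 and 0, and this call was lost without early HLB replicate 2 (adjusted p = 0.052) or E10.5 HLB replicate 3 (0.16). Gata4 was low at both stages, at 4 to 11 reads early and 1 read in each E10.5 library. All early limb bud libraries were deeper than all E10.5 ones, and depth, sequencing and stage cannot be told apart here.

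**Figure D3:**
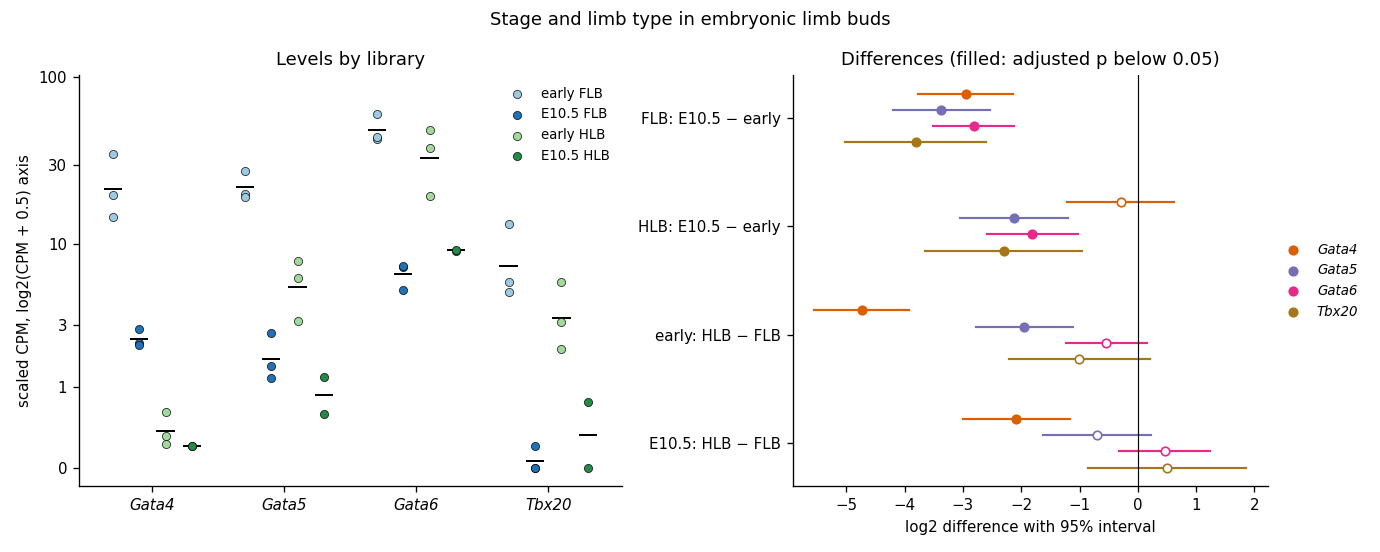
Left, levels of Gata4, Gata5, Gata6 and Tbx20 by library in the limb buds, in scaled CPM on a log2(CPM + 0.5) axis, with group means as bars; right, differences between stages and between limb types with 95% intervals, filled where the adjusted p is below 0.05. All 4 genes fell with stage in the FLB, 3 of them in the HLB, and Gata4 differs between FLB and HLB at both stages.

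Among the genes that surround these factors, 8 of 25 other cardiac regulators were higher and 8 lower at E10.5 in the FLB (median −0.05), beside 28.3% and 30.8% of all genes. In the HLB 3 were higher and 9 lower (median −0.33), beside 12.6% and 16.4% of all genes. Hand1, a bHLH factor of the heart and the body wall, fell with the GATA genes, by log2 4.48 in the FLB and 2.58 in the HLB. Hopx, a small homeodomain protein of heart muscle, fell by 3.55 and 2.50. Zfpm1 (FOG1), a cofactor of GATA proteins, fell by 1.89 and 1.02. Tbx18, of the limb and the epicardium, rose by 2.47 and 1.36. These 4 genes were chosen after their values were seen. Cardiac target genes mostly did not pass the test over stage, with 2 of 24 higher and 6 lower in the FLB and 1 higher and 1 lower in the HLB.

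Gata4 and Gata5 differed between the early FLB and the early HLB, groups in which limb type and stage cannot be told apart. In the early buds, Gata4 was 66.6 times higher in the FLB than in the HLB (HLB minus FLB log2 −4.74, SE 0.39, adjusted p = 3.2e-08, limma) and Gata5 3.94 times (−1.95, SE 0.40, adjusted p = 0.0012, limma). These were the only 2 of 6 called, beside 18.9% of all genes. Gata6 and Tbx20 overlapped between the limb types, with intervals of −1.24 to 0.15 and −2.22 to 0.20. At E10.5 Gata4 was the 1 gene called, beside 20.9% of all genes (log2 −2.08, SE 0.44, adjusted p = 0.0020, limma). It rests on 13 to 16 reads in each FLB library and 1 read in each HLB library, a ratio of 13.3 with a 95% exact counting interval of 3.47 to 114.

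Between the ES–LBs, 2 of 6 genes were called, beside 19.9% of all genes, and they were the same as in the early buds. Gata4 was lower in ES–HLB than in ES–FLB by log2 1.49 (SE 0.39, adjusted p = 0.0094, limma), a ratio of 2.90, with 9.58 to 12.4 CPM against 29.0 to 37.5 CPM. At a pseudocount of 0.1 the Gata4 difference was −1.53 and the call was lost (adjusted p = 0.18, limma). Gata5 was lower by 2.84 (SE 0.40, adjusted p = 1.9e-05, limma), a ratio of 14.0. That ratio rests on 1 to 6 reads in each ES–HLB library, at or close to the floor of 3 reads, and 38 to 58 in each ES–FLB library. Gata6 and Mef2c overlapped, with intervals of −0.90 to 0.49 and −0.22 to 0.30. Tbx20 did not overlap, at 16.2, 12.7 and 17.7 CPM in ES–HLB and 8.64, 9.09 and 6.58 CPM in ES–FLB, a ratio of 1.92. The fit of all 26 libraries did not call it (0.90, SE 0.57, adjusted p = 0.33), nor did it without BA replicate 3 (adjusted p = 0.096), and a fit of the ES–LB libraries alone did (adjusted p = 1.1e-05, limma).

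The difference between the limb types was itself compared between culture and embryo. In culture it cannot be told apart from retinoic acid against its antagonist, and in the early buds from stage. The culture groups were also sorted cells and the embryo groups unsorted tissue. For Gata4 it was smaller in culture by log2 3.24 (SE 0.55, adjusted p = 0.00025, limma), the 1 call of 6 beside 20.1% of all genes. On the forelimb side, ES–FLB and early FLB were at 32.2 ± 4.57 and 23.1 ± 10.4 CPM of Gata4, and on the hindlimb side ES–HLB and early HLB at 11.1 ± 1.42 and 0.347 ± 0.198 CPM (SD, n = 3 each). For Gata5 the difference of differences was −0.89 (interval −2.06 to 0.28). For Tbx20 the HLB minus FLB difference was −1.01 in the early buds and 0.90 between the ES–LBs, neither of them called, and the difference of differences was 1.91, which was not called with all libraries (adjusted p = 0.12, limma), and was called with the 4 groups alone (0.040) and without BA replicate 3 (0.012). The change over stage also differed between HLB and FLB for Gata4 alone (2.65, SE 0.58, adjusted p = 0.0030, limma), beside 20.6% of all genes. Gata4 of the HLB started at 4 to 11 reads, so a further fall would hardly be detectable at this depth.

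**Figure D4:**
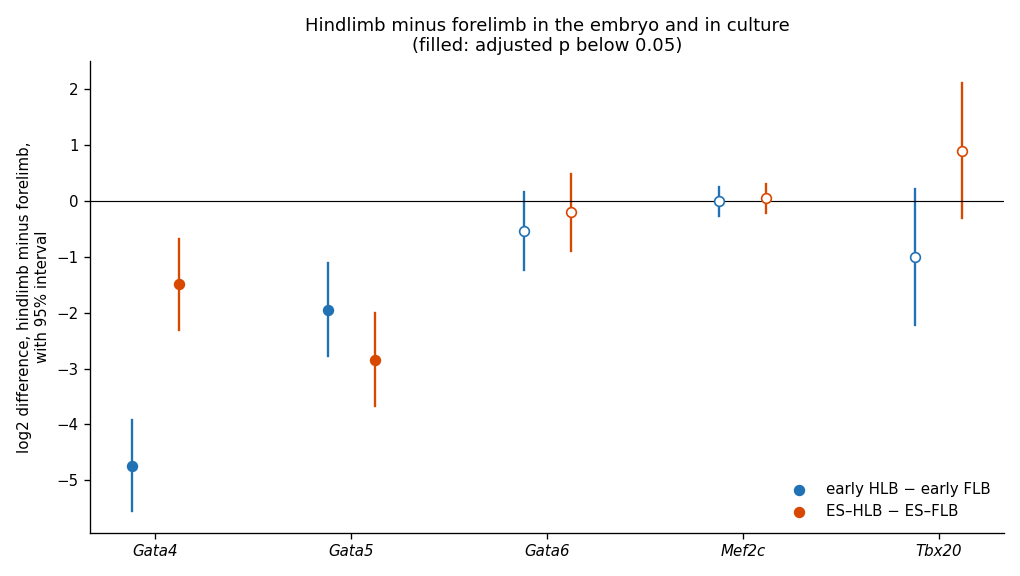
Hindlimb minus forelimb difference in mean log2(scaled CPM + 0.5), with 95% intervals, in the early limb buds and in the ES–LBs for the 5 genes other than Nkx2-5; filled points have an adjusted p below 0.05. Gata4 and Gata5 are lower on the hindlimb side in both settings, with a Gata4 gap of −4.74 in the embryo and −1.49 in culture, and Tbx20 lies on opposite sides of 0.

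Libraries of the early limb buds varied in the same direction for several members (the plot of early limb bud libraries). Early FLB replicate 3 was the highest of its group for Gata4, Gata5, Gata6 and Tbx20. It also had the most Hand1 (52.2 against 29.0 and 26.02 CPM), Actc1 (10.03 against 2.25 and 3.89 CPM) and the heart muscle myosin Myh6 (4.34 against 0.307 and 0.0499 CPM). Early HLB replicate 1 was the lowest for Gata4, Gata5, Gata6 and Tbx20 and had the least Hand1 (5.18 against 22.5 and 14.6 CPM) and Upk3b, a mesothelial gene (3.997 against 10.6 and 4.58 CPM). Without early FLB replicate 3 the FLB stage changes of Gata4, Gata5, Gata6 and Tbx20 were −2.61, −3.21, −2.66 and −3.40, and the early HLB minus FLB difference of Gata4 was −4.40, all still called. Without early HLB replicate 1 the HLB stage changes of Gata5, Gata6 and Tbx20 were −2.46, −2.18 and −2.61 and still called. How much neighbouring body wall or heart tissue was in these buds was not tested.

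**Figure D5:**
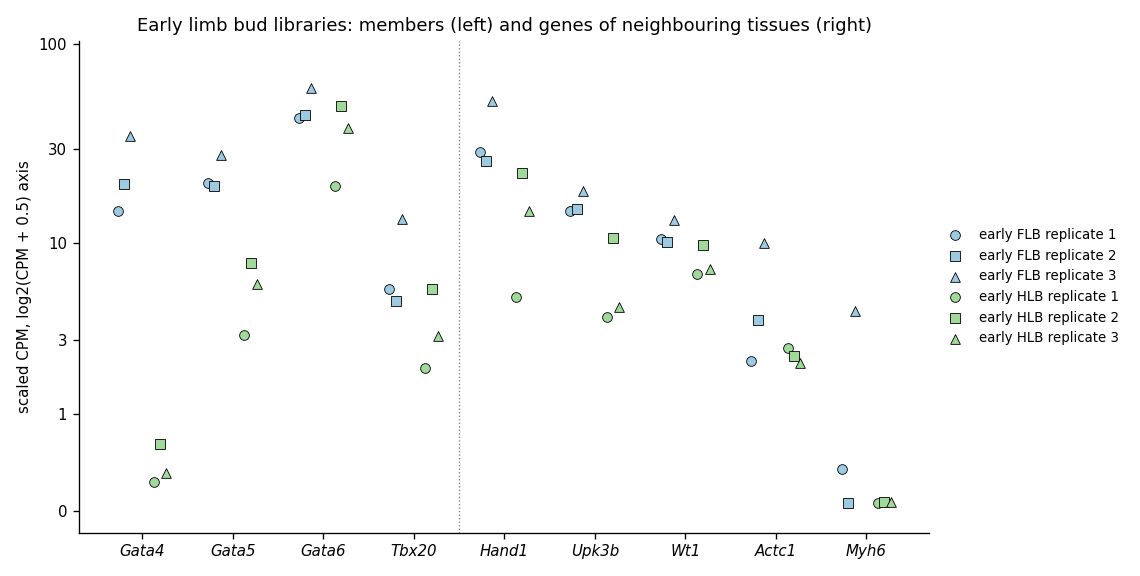
Gata4, Gata5, Gata6 and Tbx20 (left of the dotted line) and 5 genes of body wall, mesothelium and heart muscle (right) in the 6 early limb bud libraries, in scaled CPM on a log2(CPM + 0.5) axis; colour gives the limb type and shape the replicate. Early FLB replicate 3 is the highest of the early FLB libraries for all 9 genes.

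In the order of group means, some neighbours did not differ. For Gata4 the order was Ca, ES–FLB, early FLB, ES–HLB, E10.5 FLB and then BA, early HLB, E10.5 HLB and TB. ES–FLB and early FLB did not differ beyond their spread, nor did the last 4 groups among their neighbours. For Gata5 it was Ca, early FLB, ES–FLB, early HLB and E10.5 FLB, with the rest at means of at most 0.888 CPM, and ES–FLB did not differ from early HLB. For Gata6 it was Ca, ES–FLB, ES–HLB, early FLB and early HLB, then E10.5 HLB, E10.5 FLB, BA and TB. No step between ES–FLB and early HLB was called, and the step down to E10.5 HLB was (log2 1.81, adjusted p = 0.0012, limma). For Mef2c, BA and TB followed the heart at 19.9 ± 1.89 and 19.7 ± 3.08 CPM (SD, n = 3), the 4 limb bud groups lay between 15.1 and 15.7 CPM without a called step among them, and ES–HLB and ES–FLB came last at 12.04 and 11.7 CPM. For Tbx20 the order was Ca, ES–HLB, ES–FLB, early FLB, early HLB and BA, and of its 8 steps the fit called the first alone. For Nkx2-5 it was Ca, BA, then both ES–LBs, and then the groups at or near 0.

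The genes whose group means followed each member best were found among 12386 genes by Pearson's r over the 9 group means of log2(CPM + 0.5), a description in which size of change plays no part. For Mef2c these were Rcan1 (r = 0.996), Usp28, Myl6, Nexn and Efhd2. Nexn, an actin-binding protein of muscle, had 303 CPM in the heart and 3.02 to 8.71 CPM elsewhere. For Nkx2-5 they were Prr15 (0.995), Mfsd6, 3632451O06Rik, Kif13a and Ndufb7. Prr15 had a mean of 5.03 CPM in the heart and of 0 to 0.622 CPM elsewhere, at or close to the floor of 3 reads. For Gata4 they were Ccdc47 (0.973), Copg, Kcnq5, Alcam and Tgfbr3, of which Alcam, a cell adhesion molecule, had 206 CPM in the heart, 129 CPM in early FLB and 14.2 CPM in early HLB. Gata5 was followed by Calcr (0.957), B4galt6, Tbkbp1, Serpinh1 and Foxred1. Gata6 was followed by Yif1b (0.972), Slc38a4, Lamtor3, Ptdss1 and Rtn4, and Tbx20 by Rbpms (0.987), Bag3, Tbrg1, Ufsp2 and Vps13c. Rbpms, an RNA-binding protein of muscle, had 228 CPM in the heart and 30.6 to 80.7 CPM elsewhere.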

How the data were processed

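RNA-seq libraries (TruSeq Stranded mRNA) of 9 groups were read from 1 table of 23279 genes and 27 libraries, in which no column of values lacked a sample. The deposited values are counts per 1000000 reads (CPM), made by the authors. The submitters' processing notes name FastQC 0.11.5, HISAT2 2.0.4, Cufflinks 2.1.1, Cuffdiff, edgeR 3.16.2 and the mm10 build, and the strand setting of the counting is not given in the sources used here. Each column sums to 1000000 CPM. The worth of 1 read was read from the spacing of low values. Of the low values of a library 95.0% to 99.4% were whole reads within 0.05, as were 153 of the 156 member values. Whole reads could thus not be recovered for every gene, so no count test was run. The intervals and floors given cover counting error only.

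The 6 members and all gene lists were chosen with earlier results of these data known. From the CPM, scaling factors were computed by a trimmed mean of log ratios without weights (trims of 30% and 5%). Genes with 1 CPM in at least 3 of 26 libraries were kept. log2(scaled CPM + 0.5) was fitted with limma 3.58.1 (trend and robust) in R 4.3.3, in 1 model of 9 group means, for 21 comparisons of 2 groups and 2 differences of differences, and p-values were adjusted by Benjamini and Hochberg over the 14438 genes. The call was an adjusted p below 0.05, and for the heart comparisons also a fold above 4. For the order of levels all 36 pairs of groups were fitted. Ratios over few reads have exact Clopper-Pearson intervals (95%, scipy 1.17.1). Lengths are GENCODE union exons. The tables were handled with Python 3.11.15, numpy 2.4.6 and pandas 2.3.3, and the figures were drawn with matplotlib 3.10.9.

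The text names all 6 members and up to 5 called genes of a list per comparison, by highest mean CPM. For each member it names the 5 genes with the most alike group means. These were taken among genes with a mean of 5 CPM or more in at least 1 group. Genes named outside this rule are said to be so. The fit was tested on simulated data. Same-numbered replicates did not pair the samples: 3 of 100 pairs had a correlation of deviations over 0.1 (range -0.089 to 0.13). Alternatives were other pseudocounts (0.1 and 1), filters (none, 5 CPM), scalings, limma settings, the groups compared alone, a replicate block and each library left out in turn. Replicate 2 of the E10.5 HLB was left out because 13642 of its genes are listed at 0, whole chromosomes among them.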

Additional observations from a re-analysis of the deposited data

Results flagged for a closer look

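The hindlimb minus forelimb difference of Gata4 was smaller in ES–LBs than in the early limb buds by 3.24 on the log2 scale (adjusted p = 0.00025, limma), the difference between these settings being tested itself. Its change over stage differed between HLB and FLB by 2.65 (adjusted p = 0.0030, limma). That call was lost at a pseudocount of 0.1 (adjusted p = 0.12, limma). Gata4 was at 4 to 11 reads per early HLB library and 1 read per E10.5 HLB library, so a fall there would hardly be detectable. Limb type and stage cannot be told apart between the early buds, which enter both results.

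The E10.5 HLB library that was left out still held reads of 4 of the genes. In CPM as deposited it had 1.09 of Gata4 (4 reads), 3.004 of Gata5 (11 reads), 23.8 of Gata6 (87 reads) and 20.8 of Mef2c (76 reads), above the 0.819 CPM that 3 reads are worth there. Since part of its genes is at 0, the other genes take a larger share of its CPM. It had 3661850 reads on genes, against 5648234 and 5732786 in replicates 1 and 3. Those replicates held 50 and 52 reads of Gata6, 3 and 7 of Gata5, 1 and 1 of Gata4, and 95 and 77 of Mef2c. Gata4, Gata5 and Gata6 thus had more reads in the left-out library at a lower depth, and Mef2c did not. The cause was not tested.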

How the results depend on the processing

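Over 36 settings, 4917 of 4950 values of the 6 genes kept their side of the threshold, and 24 lost and 9 gained a call. A change of direction was counted only where the value was called in the main fit or in the alternative, and 0 were found. Among the counts of genes called, ES–FLB against early FLB was 3 and ranged from 3 to 5 over left-out libraries, with 5 without BA replicate 3. ES–HLB against ES–FLB went from 2 to 1 at a pseudocount of 0.1, where Gata4 was at -1.53 (main value -1.49) with an adjusted p of 0.18 (limma). The comparison of the limb type difference between culture and embryo went from 1 to 2 with the groups compared alone, and ranged from 1 to 2 over left-out libraries. The stage change in HLB against FLB went from 1 to 0 at a pseudocount of 0.1, where Gata4 had an adjusted p of 0.12 (limma), and to 2 at a pseudocount of 1, where Gata5 had 0.037. The cause was not tested. The replicate numbers do not pair the samples, and with the replicate block no call changed, as for Gata4 between early HLB and FLB (-4.74). CPM as deposited moved the median of all genes by over 0.1 (log2) in several comparisons with Ca, ES–LBs or FLB stage, most in ES–FLB against early FLB (0.22, from 0.02). There the share of calls that were higher was 62.7%, against 50.6%, and for ES–HLB against early HLB it was 61.3%, against 51.1%. Among the limb buds that share went to 60.8% from 45.1% (early HLB against FLB), to 28.5% from 47.3% (E10.5 HLB against FLB), to 66.6% from 47.9% (FLB over stage) and to 58.4% from 43.5% (HLB over stage). For the limb type difference in culture against embryo it was 44.8%, from 57.2%, and for the stage difference 26.3%, from 51.7%. The count alternatives (edgeR and another count tool) were not run, as whole reads could not be recovered for every gene. Without E10.5 HLB replicate 1, 1426 genes were called between the E10.5 limb buds, against 3023. Depth limits Nkx2-5 in TB, the limb buds and the ES–LBs, Gata4 in TB and HLB, Gata5 in TB, E10.5 HLB and ES–HLB, and Tbx20 in TB and the E10.5 limb buds, at 0 to 11 reads per library. It also limits Gata4 and Gata5 in BA, at 0 to 14 and 1 to 13 reads per library.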
